A study of Homo sapiens with 4 samples.

Results

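To examine which ASH1L peaks of leukemia cells were still listed after treatment with an ASH1L inhibitor, members were selected on measured values, as the DMSO ASH1L peaks overlapped by at least 1 bp by an AS-99 ASH1L peak. These kept peaks numbered 341 of the 2977 eligible DMSO ASH1L peaks, or 11.5% (exact 95% interval 10.3% to 12.7%). Eligible peaks lay on chromosomes 1 to 22 and X and farther than 2 Mb from any run of undetermined bases of at least 1 Mb in hg19, which left 2977 of the 3092 DMSO ASH1L peaks in the list. The other 2636 eligible peaks had no AS-99 ASH1L peak on them and are called not kept. The rule used the peak calls of both ASH1L libraries, so ASH1L pileups, peak lengths and kept shares are given as a description, and the comparisons concern place, sequence and H3K36me2, which the rule did not use.

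MV4;11, an established human leukemia line that carries an MLL1 (KMT2A) rearrangement, was used throughout. Cells were treated for 4 days with 5 µM AS-99, a small molecule inhibitor of ASH1L, or with 0.25% DMSO as the vehicle, and CUT&RUN used antibodies to either ASH1L or H3K36me2. Each of the 4 combinations of treatment and antibody is represented by 1 library. The methods describe triplicate treatments and merged files and the reporting form a single replicate, so whether a library pools cultures is not settled. Without replicate libraries no p-value was computed. Filtered fragments per library ranged from 13208636 to 19635489, and the ratio of AS-99 to DMSO ASH1L fragments was 0.783. Intervals describe counting error or peak-to-peak spread within a library, not variation between cultures.

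ASH1L is a histone methyltransferase whose catalytic SET domain places 2 methyl groups on lysine 36 of histone H3, the mark called H3K36me2. The mark is associated with active transcription, and ASH1L is known to take part in the expression of homeobox genes in leukemias with MLL1 rearrangements. In CUT&RUN an antibody directs a nuclease to its target in permeabilised cells, and the released DNA is sequenced. The height of a peak is given as its summit pileup, the number of fragments that cover its highest base.

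The sequence of 6 kept peaks is shown first, because the highest of them stood apart in sequence as well as in height. Each line gives the bases around the summit of the DMSO peak, on the plus strand of hg19 (GRCh37). In the first 3, the promoter peaks with the highest DMSO pileup that hold at most 30 bases of untranslated region in this window, capitals mark CpG dinucleotides.
MANBA promoter, chr4:103681859-103682059: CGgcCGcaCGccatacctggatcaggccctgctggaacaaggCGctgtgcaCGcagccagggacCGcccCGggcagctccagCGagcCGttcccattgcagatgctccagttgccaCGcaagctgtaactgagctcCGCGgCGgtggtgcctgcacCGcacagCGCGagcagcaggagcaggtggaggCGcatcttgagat
SIGLEC10 promoter, chr19:51920590-51920790: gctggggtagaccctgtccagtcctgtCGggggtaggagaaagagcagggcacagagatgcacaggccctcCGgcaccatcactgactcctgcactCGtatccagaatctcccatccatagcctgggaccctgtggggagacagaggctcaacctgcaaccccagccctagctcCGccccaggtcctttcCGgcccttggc
SIRPB2 promoter, chr20:1471715-1471915: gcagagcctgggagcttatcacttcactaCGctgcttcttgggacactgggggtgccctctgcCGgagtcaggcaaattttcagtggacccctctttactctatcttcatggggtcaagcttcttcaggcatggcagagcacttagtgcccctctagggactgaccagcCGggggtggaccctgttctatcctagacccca

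The window at MANBA held 17 CpG dinucleotides, that at SIGLEC10 held 5 and that at SIRPB2 held 3. In the next 3 windows, all outside promoters, capitals mark bases inside a 15-base word that also occurs, on either strand, in the ribosomal RNA gene unit of an unplaced contig of the assembly.
HFM1 intron, chr1:91852865-91853065: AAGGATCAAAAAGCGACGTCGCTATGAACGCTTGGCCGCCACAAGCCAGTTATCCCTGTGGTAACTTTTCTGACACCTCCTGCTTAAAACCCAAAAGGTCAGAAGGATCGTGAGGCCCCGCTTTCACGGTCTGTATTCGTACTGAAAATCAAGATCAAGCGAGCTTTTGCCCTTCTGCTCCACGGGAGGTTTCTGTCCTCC
Intergenic peak on chromosome X, chrX:108297601-108297801: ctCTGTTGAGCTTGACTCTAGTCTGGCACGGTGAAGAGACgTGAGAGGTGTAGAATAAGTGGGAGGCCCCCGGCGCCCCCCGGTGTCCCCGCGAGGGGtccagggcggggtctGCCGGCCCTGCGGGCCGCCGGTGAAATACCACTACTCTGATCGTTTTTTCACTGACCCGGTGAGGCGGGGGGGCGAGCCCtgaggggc
Intergenic peak on chromosome 12, chr12:127650554-127650754: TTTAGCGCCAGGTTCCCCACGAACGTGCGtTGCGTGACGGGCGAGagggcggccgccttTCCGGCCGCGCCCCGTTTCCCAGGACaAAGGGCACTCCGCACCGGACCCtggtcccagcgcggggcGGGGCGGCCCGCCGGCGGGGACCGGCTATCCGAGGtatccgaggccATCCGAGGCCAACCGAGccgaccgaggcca

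Ribosomal RNA genes lie in long tandem arrays on the short arms of the acrocentric chromosomes, which are not assembled in hg19. The unit on the unplaced contig was located by its match to an annotated 5.8S ribosomal RNA pseudogene, and 15 kb around that match were searched. All printed bases of the HFM1 intron lay in shared words, as did 175 bases of the chromosome X window and 144 of the chromosome 12 window. Over 300 bp around the summit, 282 words were shared at HFM1, and the longest run identical to the unit was 296 bp. On chromosome X 170 words were shared, with a longest run of 80 bp, and on chromosome 12 there were 92 and 44 bp.

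The ribosomal RNA-like peaks were also the tall ones. Of the 2977 eligible DMSO ASH1L peaks, 5 shared at least 50 words with the unit, 3 of them kept and 2 not kept, and the next highest count was 35. Exactly 6 eligible peaks had a DMSO pileup of at least 50 fragments, and 5 of these 6 were the ribosomal RNA-like peaks, against 0 of the 2971 lower peaks. The 2 that were not kept lay in introns of PMF1 on chromosome 1 (chr1:156186276-156186573), with 93 fragments, and of SLCO5A1 on chromosome 8 (chr8:70602353-70602608), with 58. No list held a peak on an unplaced contig, and whether those contigs were part of the reference used for mapping is not given in the sources used here. The part of unplaced ribosomal RNA genes in these pileups was not tested.

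**Figure D1:**
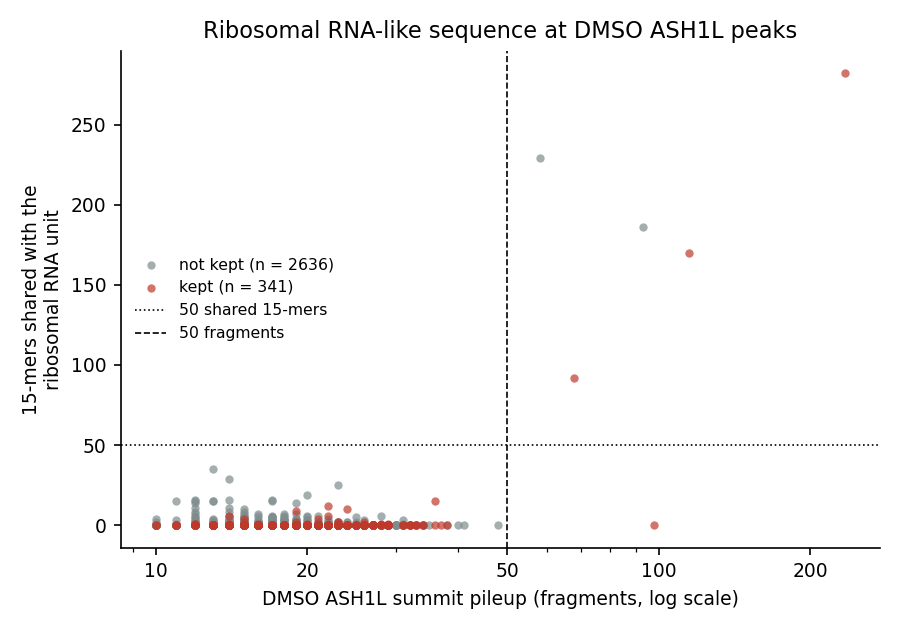
Number of 15-base words (in the 300 bp around the summit) shared with the ribosomal RNA unit, against the DMSO ASH1L summit pileup in fragments on a log axis, for kept (red) and not kept (grey) peaks. The 5 peaks above the dotted line at 50 words all lie right of the dashed line at 50 fragments, and 1 further kept peak, on chromosome 17, passes 50 fragments with 0 shared words.

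The 3 highest kept peaks ranked between 1 and 5 among the eligible peaks of all 4 lists. At the HFM1 intron (chr1:91852797-91853133), inside the gene of a meiotic DNA helicase, the pileup was 235 fragments (exact Poisson interval 206 to 267) in the DMSO ASH1L library and 135 (113 to 160) in the AS-99 ASH1L library. The H3K36me2 libraries had 47 fragments there with DMSO and 102 with AS-99. This peak ranked 1 among the eligible peaks of both ASH1L lists, 5 with H3K36me2 under DMSO and 1 with H3K36me2 under AS-99. The highest value was thus in the DMSO ASH1L library and the lowest in the DMSO H3K36me2 library.

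The intergenic peak on chromosome X (chrX:108297384-108297827) lay 317908 bp upstream of the nearest protein-coding gene start, that of IRS4, over an annotated pseudogene. Its pileups were 115 (94.9 to 138) with DMSO and 81 (64.3 to 101) with AS-99 for ASH1L, and 59 and 58 for H3K36me2. On chromosome 17 a peak of 1269 bp (chr17:41399880-41401148) had 98 (79.6 to 119) and 79 (62.5 to 98.5) fragments for ASH1L and 90 and 73 for H3K36me2. It ranked 3 in both ASH1L lists, 1 with H3K36me2 under DMSO and 2 with H3K36me2 under AS-99. A smaller kept peak lay nearby at chr17:41381809-41382306, with 33 and 24 fragments for ASH1L and again 33 and 24 for H3K36me2. The peak on chromosome 12 (chr12:127650485-127650977) had 68 (52.8 to 86.2) and 46 (33.7 to 61.4) fragments for ASH1L and 29 and 25 for H3K36me2. In each of these regions the pileup of every antibody was lower with AS-99 than with DMSO before scaling, except for H3K36me2 at HFM1.

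Below these, the kept peaks were low. Over all 341, the DMSO pileup ranged from 10 to 235 fragments with a median of 19, and the AS-99 pileup from 10 to 135 with a median of 17. The not kept peaks ranged from 10 to 93 with a median of 16. Kept peaks had a median length of 353 bp (340 to 367) against 316.5 bp (313 to 320), which is no test, since a longer peak meets the overlap rule more easily. Every kept peak was matched to a single AS-99 peak, and the 341 AS-99 peaks were 19.6% of the 1738 eligible peaks of that list. The overlap was 288 bp at the median (43 to 1233), and the summits of the 2 libraries lay within 100 bp of each other at 203 of the 341 members, with a median distance of 80 bp.

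The kept share rose with the DMSO pileup. It was 5.90% (53 of 899) for pileups of 10 to 14, 7.38% (24 of 325) at 15, 7.96% (46 of 578) at 16 to 17, 11.6% (68 of 584) at 18 to 20 and 25.4% (150 of 591) at 21 or more. The peaks with at least 21 fragments thus gave 150 of the 341 members. Among the not kept peaks, 119 would have fallen below the lowest pileup of the AS-99 ASH1L list if their pileup were multiplied by the ratio of library sizes. That lowest pileup was 9 fragments, whereas the median of the AS-99 ASH1L list was 15 and that of the scaled not kept peaks 12.5. Peaks with DMSO pileups as low as 10 fragments were also kept, so the 119 are not a count of peaks lost through depth. The part of depth in the loss of the not kept peaks was not tested.

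After division by filtered fragments, the median log2 ratio of AS-99 over DMSO pileup at the members was 0.16 (0.12 to 0.23), with 237 members higher and 104 lower with AS-99. It was −0.19 without scaling and −0.0074 (−0.039 to 0.052) with fold enrichment in place of pileup, so no direction was given to it. The ratio depended on the class of DMSO pileup. All 53 members of the lowest class were higher after scaling, with a median of 0.46, whereas in the highest class the median was −0.05 (−0.12 to 0.05), with 68 higher and 82 lower. A member of the lowest class had to reach the AS-99 threshold to be listed at all, so its ratio could hardly be low.

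**Figure D2:**
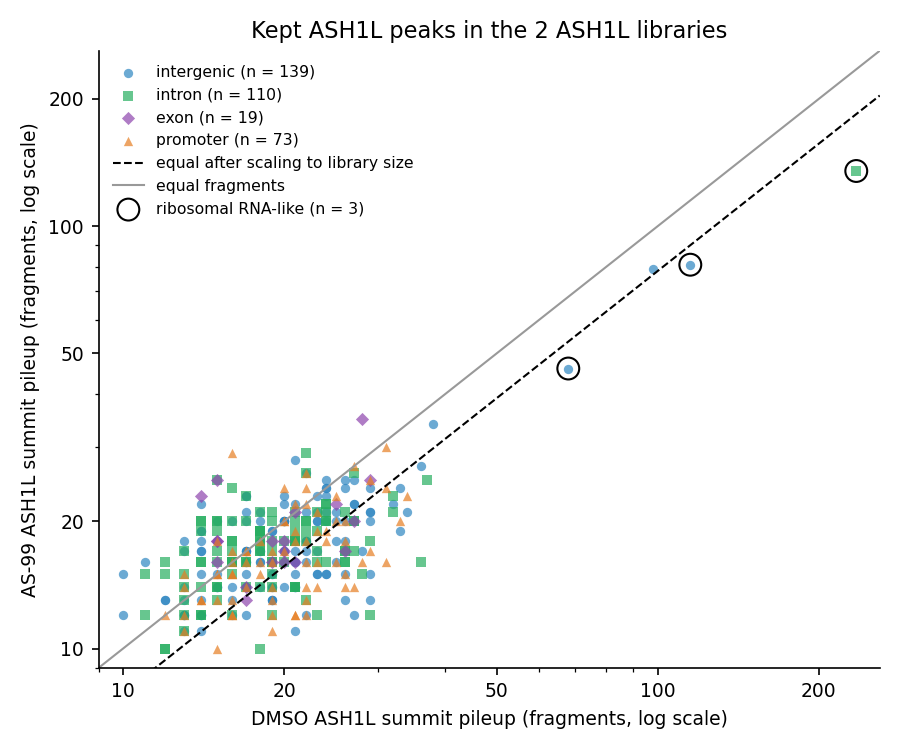
Summit pileup of the 341 kept peaks in the DMSO (x axis) and AS-99 (y axis) ASH1L libraries, in fragments on log axes, with the place of each peak by colour and marker. The grey line marks equal fragments, the dashed line equal values after scaling to library size, and open circles the 3 ribosomal RNA-like members, which lie below the dashed line.

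The members with the most extreme ratios had DMSO pileups of 14 to 16 fragments on the high side and of 26 to 36 on the low side. At the promoter of LILRA5, a leukocyte immunoglobulin-like receptor, the pileup was 16 fragments with DMSO and 29 with AS-99, a scaled log2 ratio of 1.21, the highest of all members. The next were an intron of IHO1 (15 and 25 fragments), an exon of the cyclin gene CCNE2 (15 and 25), a coding exon of METTL22 (14 and 23) and an intergenic peak near RIPOR2 (14 and 22). The lowest ratio, −0.92, was in an intron of RPTOR, which encodes a subunit of the mTORC1 complex, with 29 and 12 fragments. It was followed by an intron of CPQ (36 and 16) and intergenic peaks on chromosome 1 near H3-7 (27 and 12), on chromosome 15 near ARPIN (29 and 13) and on chromosome 3 near LRTM1 (26 and 13).

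Kept peaks lay between genes more often than the not kept peaks. Intergenic sequence held 139 of the 341 kept peaks, or 40.8% (35.5% to 46.2%), and 895 of the 2636 not kept, or 34.0% (32.1% to 35.8%), where 34.7% of all eligible peaks were intergenic. The difference was 6.81 percentage points (Newcombe 95% interval 1.41 to 12.4). Unlike the promoter difference, it was not recomputed under other settings. Promoters, the 1 kb on either side of the start of a protein-coding gene, held 73 kept peaks, or 21.4% (17.2% to 26.1%), against 683 not kept, or 25.9% (24.2% to 27.6%), where 25.4% of all eligible peaks lay at promoters. The promoter difference of −4.50 points had an interval of −8.87 to 0.44, which included 0. It was −7.67 points (−12.0 to −2.63) without chromosome 19. Introns held 110 kept peaks and exons 19, and the intervals of both differences included 0.

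**Figure D3:**
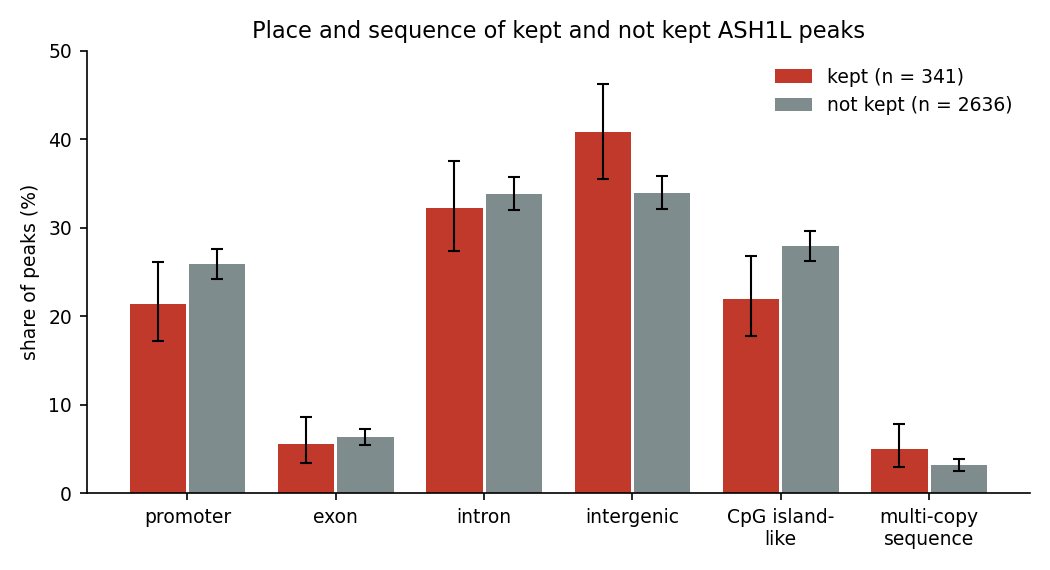
Share of kept (red, n = 341) and not kept (grey, n = 2636) DMSO ASH1L peaks by place and by sequence class, in percent, with exact 95% intervals as error bars. Intergenic peaks made up 40.8% of the kept and 34.0% of the not kept peaks, and CpG island-like sequence 21.99% and 27.9%.

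The highest kept promoter peak was that of MANBA, the lysosomal beta-mannosidase, with 34 fragments (23.5 to 47.5) with DMSO and 23 (14.6 to 34.5) with AS-99. Its DMSO peak spans chr4:103681697-103682176 and its summit lay 192 bp downstream of the gene's start, in coding sequence. TRIM41, a ubiquitin ligase gene, had 33 and 20 fragments. SIGLEC10, an inhibitory sialic acid receptor of leukocytes, had 31 and 30 in a peak at chr19:51920496-51920867, with its summit 367 bp downstream of the start. MRPL54, a protein of the large mitochondrial ribosomal subunit, had 31 and 24, and SIRPB2, a signal regulatory protein, 31 and 16.

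The remaining members of the 12 highest promoter peaks had between 26 and 29 fragments with DMSO and between 14 and 27 with AS-99. They were PGGT1B (29 and 25), a subunit of a protein prenyltransferase, BBIP1 (29 and 17), a subunit of the BBSome of cilia, COQ8A (28 and 16), of coenzyme Q synthesis, VPS29 (27 and 27), a retromer subunit, EMP3 (27 and 14), CRH (26 and 14), the gene of corticotropin-releasing hormone, and ANXA2R (26 and 18). Exact Poisson intervals of DMSO and AS-99 pileups overlapped at each of the 5 highest, and none of the 73 promoter members reached 50 fragments.

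Summits of the kept promoter peaks lay a median of 169 bp downstream of the gene's start, compared with 133 bp for the not kept. The share within 250 bp of the start was 50.7% (37 of 73) for the kept and 49.3% for the not kept peaks, and 21 kept summits (28.8%) lay upstream, against 35.6%. The intervals of both shares overlapped between the groups. For contrast, the highest not kept promoter peaks, all on chromosome 19, were at DBP (40 fragments), CIC (38), CYTH2 (32), GSK3A (32) and ZNF524 (31). Those at DBP and CIC were higher than the highest kept promoter peak, that of MANBA with 34.

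Genes with a kept promoter peak numbered 89 of 20090 protein-coding genes, or 0.443%, and 833 further genes had promoter peaks of which none was kept. Kept genes were therefore 9.65% of the genes with a promoter peak. None of the 25 MLL fusion targets and genes followed by the study had a kept promoter peak, and 1 had a not kept one. The list includes HOXA9, MEIS1, MEF2C, DLX2 and FLT3. In the gene body or within 5 kb, 1 of the 25 genes had a kept peak and 8 had a not kept peak, where 1.41% of all protein-coding genes had a kept and 11.04% a not kept peak. The kept peak lay in an intron of RUNX1 (chr21:36238088-36238451), with 26 fragments with DMSO and 16 with AS-99. A window of the body and 5 kb grows with gene length, for which no share was adjusted. At promoters, 4% of the 25 genes had only not kept peaks, against 4.15% of all protein-coding genes. Of the 18 myeloid transcription factors none had a promoter peak of either kind. In the body or within 5 kb, 1 of the 18 had a kept peak and 2 had a not kept peak. Of 21 genes of the H3K36 and MLL machinery, SETMAR, which joins a methyltransferase to a transposase, had a kept promoter peak, with 21 and 12 fragments. In the body or within 5 kb, 1 of the 21 had a kept peak and 5 had a not kept peak.

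Over all protein-coding genes, 0.443% had a kept promoter peak and 4.15% only not kept ones. Of the genes with a promoter peak, 9.65% had a kept one. The counts of the lists below are to be read beside these shares. Histone genes, which encode proteins that package DNA, had kept promoter peaks at 4 of 68 genes and not kept ones at 4 more. The 4 kept genes shared 2 peaks on chromosome 6, of H3C1 and H4C1 (25 and 16 fragments) and of H2BC5 and H1-4 (26 and 20). Of these, H1-4 encodes a linker histone and the others core histones. Zinc finger genes had 7 kept and 43 not kept of 516, namely ZNF616 (23 and 16), ZNF780A (23 and 21), ZNF302 (22 and 18, in a peak nearest the start of SCGB2B2), ZNF428 (22 and 12), ZNF566 (22 and 13), ZNF169 (15 and 15) and ZNF776 (15 and 18). Splicing and RNA processing factors had 0 kept and 18 not kept of 141. Ribosomal protein genes had 1 kept, RPS29 (18 and 18), and 7 not kept of 100, and mitochondrial ribosomal and proteasome genes had 2 kept, MRPL54 and MRPS17 (12 and 12), and 6 not kept of 128.

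Among the 8 highest members outside promoters, 3 further ones were on chromosome 8. An intergenic peak at chr8:21715662-21716147 had 38 fragments (26.9 to 52.2) with DMSO and 34 (23.5 to 47.5) with AS-99, and an H3K36me2 peak of 31 fragments with DMSO and none with AS-99. A peak at chr8:86556436-86556876 near REXO1L1 had 36 and 27 fragments for ASH1L and 13 and 24 for H3K36me2, and a further kept peak lay in an exon of REXO1L1 itself, with 29 and 25 for ASH1L and 23 and 30 for H3K36me2. The peak in an intron of CPQ, with 36 and 16 fragments, had no H3K36me2 peak. On chromosome 19 an intron of ERCC1, a nucleotide excision repair gene, 11832 bp upstream of FOSB, had 37 (26.1 to 51.0) and 25 (16.2 to 36.9) fragments.

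Sequence that occurs more than once on the assembled chromosomes was present at few members. The median 31-base word of the 300 bp around the summit occurred at least 2 times on chromosomes 1 to 22, X and Y at 17 kept peaks (4.99%) and 83 not kept (3.15%), where 3.36% of all eligible peaks had such sequence. The difference was 1.84 points (−0.15 to 4.75). At the CPQ intron the median word occurred 8588.5 times and at the intergenic peak near REXO1L1 12 times. For these members the place of the fragments cannot be told apart from that of their copies.

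The mean GC content of the 300 bp around the summit was 53.1% ± 10.0 (SD over 341 peaks) for the kept and 54.2% ± 10.7 for the not kept peaks, a difference of −1.08 points (−2.22 to 0.06). The interval left out 0 under 6 of 10 alternatives, with −2.12 points (−3.26 to −0.98) when peaks near assembly gaps were put back. At promoters it was 62.4% and 63.0%, and elsewhere 50.6% and 51.1%, and both intervals of the difference included 0. When the groups were weighted to the same distribution of DMSO pileup, the difference was −1.84 points. The ratio of observed to expected CpG dinucleotides had a median of 0.282 (0.232 to 0.333) at kept and 0.340 (0.324 to 0.357) at not kept peaks, a difference of −0.059 (−0.111 to −0.0050). It was −0.027 (−0.084 to 0.027) with peaks near gaps put back and −0.031 (−0.132 to 0.043) at a −log10 p of at least 10, and its interval also included 0 without chromosome 8. The difference of mean ratios was −0.055 (−0.116 to 0.0060) at promoters and −0.022 (−0.050 to 0.0065) elsewhere. Both of these intervals included 0. CpG island-like sequence, with at least 50% GC and a ratio of at least 0.6, was present at 75 kept peaks, or 21.99%, and at 27.9% of the not kept, where 27.2% of all eligible peaks had it. That difference was −5.93 points (−10.4 to −0.94). It was −4.90 (−16.5 to 4.81) among promoter peaks alone and −2.48 (−5.64 to 1.70) outside promoters.

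Of 14 short motifs searched on both strands of these windows, the SP/KLF motif GGGCGG was present at 63 kept peaks (18.5%) and at 27.2% of the not kept, where 26.2% of all eligible peaks held it. The difference was −8.73 points (−12.9 to −3.96). Among promoter peaks it was −15.0 points (−26.4 to −3.01), with 33 of 73 kept (45.2%) and 60.2% not kept, where 58.7% of all promoter peaks held it. Outside promoters the interval of the difference included 0 (−8.12 to 0.13). The motif was present in 54.1% of windows of the same length at 20098 protein-coding gene starts. The motif holds a CpG, so it is not independent of the CpG ratio. The motif CGCG was present at 26.1% of kept and 33.6% of not kept peaks, where 32.8% of all eligible peaks held it, a difference of −7.55 points (−12.3 to −2.33). For CGCG it was −10.6 points (−22.4 to −0.012) at promoters and −3.53 (−7.79 to 1.59) outside them. The RUNX motif TGTGGTT was present at 11.4% and 8.23%, where 8.60% of all eligible peaks held it, a difference of 3.20 points (0.05 to 7.15). Its interval included 0 at promoters (−1.93 to 8.54) and outside them (−0.49 to 8.12), and no interval was corrected for the 14 motifs searched. At the gene starts CGCG was present in 61.5% and TGTGGTT in 3.40% of windows. For the other 11 motifs the interval over all peaks included 0. These were CCAAT for the CCAAT box, CGGAAG for ETS factors, CACGTG for the E-box, TGACTCA for AP-1, CGCATGC for NRF1, AAGATGG for YY1, AGATAAG for GATA factors, GAGGAAG for PU.1, TATAAA for the TATA box, AGGGGGC for the core of CTCF and GGAATGG for satellite repeats. A match is a description of the letters in the window.

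H3K36me2 peaks were more frequent at kept than at not kept ASH1L peaks with either treatment. A DMSO H3K36me2 peak overlapped 59 of 341 kept peaks, or 17.3% (13.4% to 21.7%), and 158 of 2636 not kept, or 5.99% (5.12% to 6.97%), where 7.29% of all eligible peaks had one. The difference was 11.3 points (7.54 to 15.8). An AS-99 H3K36me2 peak overlapped 52 kept peaks, or 15.2% (11.6% to 19.5%), and 69 not kept, or 2.62% (2.04% to 3.30%), where 4.06% of all eligible peaks had one, a difference of 12.6 points (9.14 to 16.9). Kept peaks had higher ASH1L pileups, and H3K36me2 overlap was most frequent in the highest pileup class of both groups. Weighted to the same distribution of DMSO pileup, the differences were 8.21 points for DMSO and 11.5 points for AS-99 H3K36me2. The weighting did not cover local background at the summit, with a median of 2.89 fragments at kept and 2.61 at not kept peaks. All kept peaks were selected for a peak in an AS-99 library. The part of that selection in the AS-99 H3K36me2 differences, here and below, was not tested.

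Within the class of DMSO ASH1L pileups of 21 or more, an AS-99 H3K36me2 peak was present at 35 of 150 kept peaks (23.3%) and 26 of 441 not kept (5.90%), a difference of 17.4 points (10.9 to 25.05). A DMSO H3K36me2 peak was present at 36 (24%) and 63 (14.3%), a difference of 9.71 points (2.62 to 17.7). In the lowest class, 3 of 53 kept peaks (5.66%) had an AS-99 H3K36me2 peak, against 11 of 846 (1.30%).

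**Figure D4:**
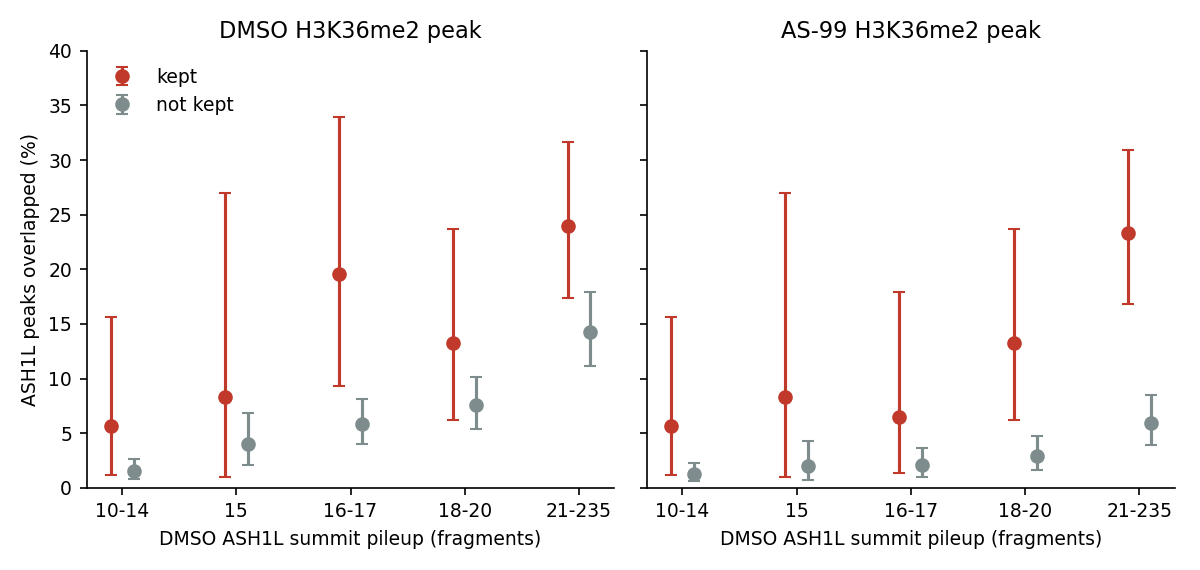
Share of DMSO ASH1L peaks overlapped by a DMSO H3K36me2 peak (left) or an AS-99 H3K36me2 peak (right), in percent, by DMSO ASH1L summit pileup in fragments, for kept (red) and not kept (grey) peaks with exact 95% intervals. The kept peaks have the higher share in each of the 5 classes of both panels, from 5.66% to 24% for DMSO H3K36me2, although the intervals of the groups overlap in most classes.

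The 2 H3K36me2 libraries marked partly different members. Peaks of both were present at 22 kept peaks, of DMSO alone at 37, of AS-99 alone at 30, and of neither at 252. Among kept peaks with a DMSO H3K36me2 peak, 22 of 59 (37.3%, 25.04% to 50.9%) also had one with AS-99, compared with 17 of 158 (10.8%, 6.39% to 16.7%) of the not kept, a difference of 26.5 points (13.9 to 39.9). Among peaks without a DMSO H3K36me2 peak, 30 of 282 kept (10.6%) and 52 of 2478 not kept (2.098%) had one with AS-99, a difference of 8.54 points (5.39 to 12.7).

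Outside promoters, 58 of 268 kept peaks (21.6%) and 7.37% of the not kept had a DMSO H3K36me2 peak, a difference of 14.3 points (9.59 to 19.7). With AS-99 the shares were 15.7% and 2.97%, a difference of 12.7 points (8.75 to 17.6). Intergenic members had the mark in 36 of 139 cases with DMSO (25.9%) and 24 with AS-99 (17.3%), against 7.82% and 3.02% of the not kept intergenic peaks. For members in introns the shares were 15.5% with DMSO and 12.7% with AS-99, against 6.95% and 2.58%.

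Kept promoter peaks were marked differently in the 2 H3K36me2 libraries, whereas the not kept ones had similar shares in both (2.05% and 1.61%). Kept peaks were selected for a peak in an AS-99 library, and the part of that selection was not tested. With DMSO, 1 of 73 kept promoter peaks and 14 of 683 not kept had an H3K36me2 peak, a difference of −0.68 points (−2.45 to 5.37). With AS-99, 10 of 73 kept (13.7%, 6.77% to 23.8%) and 11 of 683 not kept (1.61%, 0.81% to 2.86%) had one, where 2.78% of all eligible promoter peaks did. The difference was 12.1 points (5.88 to 21.8), and it was 8.50 (2.69 to 19.9) without chromosome 19, which held 5 of the 10. At a −log10 p of at least 10 it was 35.7 (16.9 to 58.3), over 18 kept promoter peaks.

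The promoter of SIGLEC10 held an H3K36me2 peak with both treatments, with 25 fragments with DMSO and 30 with AS-99, and was the promoter member with peaks in all 4 lists. In the AS-99 H3K36me2 library MYO1F, a myosin of leukocytes, had 26 fragments, CCRL2, a chemokine receptor-like protein, 19, MANBA 19 and C6orf226 17. CFD, the gene of complement factor D, had 15, MTIF2, a mitochondrial translation initiation factor, 15, MRPL54 14, ZNF566 13 and VPS29 12. Apart from SIGLEC10, these 9 promoters were listed without an H3K36me2 peak with DMSO. Their pileups of 12 to 26 fragments compare with a median of 15 over that list, and H3K36me2 signal below the threshold is not part of the peak lists.

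The 22 members with peaks in all 4 lists were mostly intergenic, with 14 between genes, 5 in introns, 2 in exons and 1 at a promoter. Their DMSO ASH1L pileup had a median of 27 fragments, against 21 for members marked in 1 of the H3K36me2 libraries and 19 for those marked in neither. Besides the regions described above they include introns of THEMIS2 (27 and 20 fragments for ASH1L, 19 and 17 for H3K36me2), a gene of immune cell signalling, and of the kinase gene PAK4 (29 and 18, 17 and 19), and an intergenic peak on chromosome 19 near TNFSF9 (27 and 25, 30 and 21), a cytokine of the tumor necrosis factor family. Among members with an H3K36me2 peak with DMSO alone, the highest H3K36me2 pileup was in an exon of DEDD2 on chromosome 19 (chr19:42705879-42706199), with 28 and 35 fragments for ASH1L and 39 for H3K36me2.

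Chromosomes 8 and 19 had the highest kept shares, which is a description, since they were picked for it. The kept share was 18.8% on chromosome 8 (42 of 224) and 18.1% on chromosome 19 (50 of 276), against 10.1% on the other chromosomes (249 of 2477), differences of 8.70 points (3.96 to 14.4) and 8.06 points (3.78 to 13.2). Pileup and background moved with this. The median DMSO pileup was 20 fragments on both chromosomes and 16 on the others, and the median local background was 3.604 and 3.74 fragments, compared with 2.53. Among peaks of at least 21 fragments the kept share was 26.0% on chromosome 8 (17.9% to 35.5%), 28.9% on chromosome 19 (21.2% to 37.6%) and 23.96% elsewhere (19.6% to 28.7%), with overlapping intervals. On chromosome 19, 23 of 50 members lay at promoters, against 84 of 226 not kept peaks (37.2%), and on chromosome 8 it was 3 of 42 against 27 of 182 (14.8%). Both differences had intervals that included 0.

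**Figure D5:**
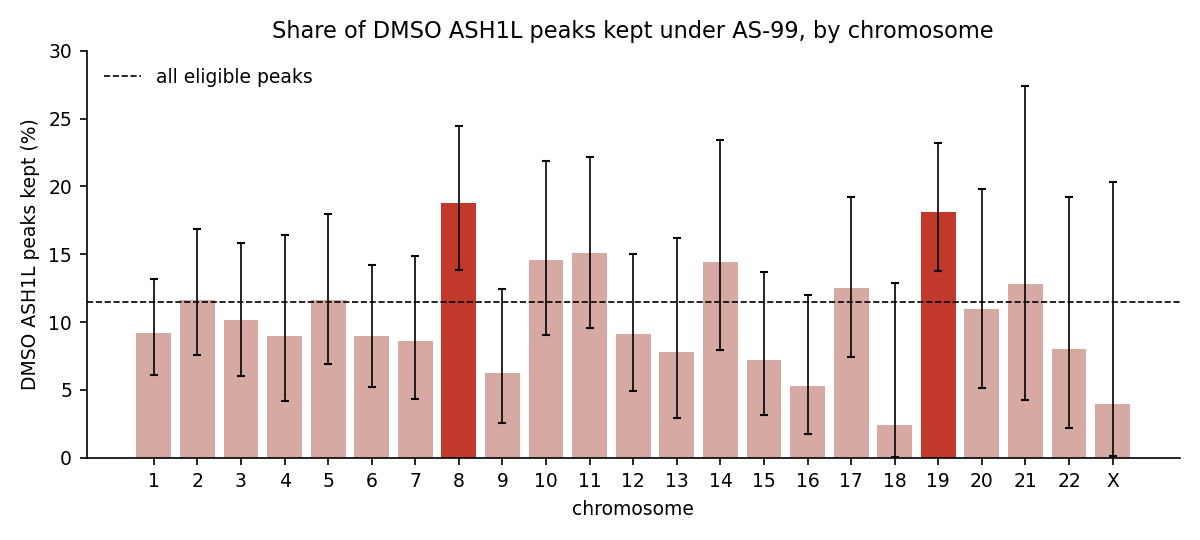
Share of eligible DMSO ASH1L peaks kept under AS-99 on each chromosome, in percent, with exact 95% intervals as error bars and a dashed line at the share over all eligible peaks (11.5%). Chromosomes 8 (18.8%) and 19 (18.1%), in the darker colour, have the highest shares.

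At the edge of the rule, the shortest overlap was 43 bp, at an intergenic peak near CHST1 on chromosome 11 with 14 fragments with DMSO and 19 with AS-99. The next were 46 bp at the promoter of SCGB2B2 (22 and 18) and 56 bp at that of INTS10 (22 and 22). Just outside, the not kept peak nearest an AS-99 peak lay in an intron of ZNF790 on chromosome 19, with 20 fragments and a gap of 23 bp. The promoter peak of STT3B on chromosome 3, with 26 fragments, lay 25 bp from an AS-99 peak of 15, and a peak in an intron of DLEU7 on chromosome 13, with 20 fragments, lay 44 bp from its neighbour.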

How the data were processed

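CUT&RUN reads were mapped by the authors to hg19 with Bowtie2, and peaks were called on each library with MACS. Per the file headers this was MACS 2.1.0.20150731 with q 0.01, at most 2 duplicates, a 10 kb local window and no control. The methods name another MACS version and p threshold, a slightly higher dose and a spike-in. Headers and labels were followed, and no spike-in scaling was applied. Deposited summit pileup is signal in fragments, not scaled to library size. The deposited −log10 p and q values and the fold enrichment, a ratio of pileup to local background, are those MACS wrote. Here the −log10 values served as a stricter threshold only.

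Overlaps were computed with a custom function, which was compared with bedtools 2.31.1 on simulated intervals. Sequence was read from GRCh37 with pysam 0.24.0. Genes came from GENCODE release 44 on GRCh37, with 20176 protein-coding genes. Promoters were 1 kb on either side of a start, and GC, CpG and motifs were taken over 300 bp around the summit. Copy number was the median count of 31-base words on chromosomes 1 to 22, X and Y. Shares have exact Clopper-Pearson, differences of shares Newcombe, medians order-statistic and pileups exact Poisson 95% intervals (scipy 1.17.1, pandas 2.3.3, Python 3.11.15). Differences of means have a large-sample 95% interval from both standard errors. Fragments carry no molecular identifiers, so they need not be independent molecules. Functions were tested on simulated data.

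Members and gene lists were chosen with earlier results of these data known. Named members were the 12 highest kept promoter peaks, the 8 highest elsewhere, those with H3K36me2 peaks at promoters with both treatments, the 5 highest and 5 lowest ratios, up to 12 listed genes, the 3 members and 3 other peaks at the edge of the rule, and the 5 highest promoter peaks not kept. The ribosomal RNA-like peaks, the chromosome 12 sequence, the promoters with AS-99 H3K36me2 alone, the other members in all 4 lists, DEDD2, RUNX1, ZNF169, ZNF776, MRPS17 and the splits by promoter were named after their values were seen. Alternatives covered the overlap rule, a −log10 p of at least 10, peaks near gaps, the promoter window, pileup classes, scaling, and leaving out chromosomes, multi-copy or ribosomal RNA-like peaks.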

Additional observations from a re-analysis of the deposited data

How the results depend on the processing

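Of 100 recomputed values, 86 moved by less than their interval or kept their call, 12 moved by more and 2 changed sign. The kept share was 8.90% with a reciprocal overlap of 50%, 12.7% with an AS-99 peak within 1 kb and 10.2% at a −log10 p of at least 10 in both lists. The DMSO H3K36me2 difference was 22.7 points at that threshold and 16.3 with gap-near peaks put back, and the AS-99 H3K36me2 difference was 23.9 and 18.5. The median log2 pileup ratio changed sign, to −0.19 without scaling and to −0.0074 with fold enrichment. The fold enrichment interval, −0.039 to 0.052, included 0. The cause of the sign changes was not tested, apart from scaling, which shifts each ratio by a constant. Over all alternatives the DMSO H3K36me2 difference stayed between 8.21 and 22.7 points, the AS-99 difference between 11.3 and 23.9 and the GC difference between −2.12 and −0.76. The GC interval left out 0 under 6 of 10 alternatives and that of the CpG ratio under 7 of 10, although neither direction changed. The promoter difference ranged from −7.72 to −3.32 points, and its interval left out 0 with a reciprocal overlap of 50% (−5.92), a 1 kb distance (−5.15), gap-near peaks put back (−6.18) and without chromosome 19 (−7.67), the last of these added after seeing the data. Leaving out chromosome 19, multi-copy peaks or ribosomal RNA-like peaks was chosen after seeing the data. The setting without regions in all 4 lists was not applied to H3K36me2, since it removes overlaps by construction. No paired analysis was possible because no combination of treatment and antibody had more than 1 library. Most pileups were 10 to 30 fragments, so a peak missing from a list may lie just under its threshold.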
